A study of Mus musculus with 18 samples.

Results

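Esrrb and Tfcp2l1, a pair of transcription factors of naive pluripotency, were followed in 18 Affymetrix mouse expression arrays. The members were all probe sets that the authors' list of raised probe sets names Esrrb or Tfcp2l1. This gave 2 of the 45037 probe sets analysed, one for each gene. With 1 named probe set a gene, agreement between probe sets of a gene could not be assessed.

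The arrays held 3 samples of mouse embryonic fibroblasts (MEFs), 3 clones of mouse embryonic stem cells (mESCs) and 4 clones each from 3 ways of making induced pluripotent stem cells (iPSCs). OE + EpEX iPSCs came from MEFs that overexpressed Oct4 and the adhesion protein EpCAM and were treated with EpEX, the extracellular part of EpCAM. For KE + EpEX iPSCs Klf4 took the place of Oct4, and OSKM iPSCs came from MEFs that overexpressed Oct4, Sox2, Klf4 and c-Myc. The factors sat on PiggyBac PB-TET constructs and were induced with 1.5 µg/mL doxycycline for 21 days on feeder cells in medium with LIF. The labels give 1 strain for all 5 groups. It joins B6.Cg-Gt (ROSA) 26Sortm1 (rtTA*M2), of the Jae/J line, which carries the doxycycline-responsive activator rtTA*M2, with B6.129S4-POU5f1tm2Jae/J, an altered Pou5f1 allele. MEFs came from embryos at E13.5. The labels call the 3 MEF arrays biological replicates while the design text speaks of 1 primary culture, so their spread may be technical.

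Esrrb is an orphan nuclear receptor of the estrogen-related receptor family. It binds DNA without a known natural hormone, and in mESCs it is held in check by the repressor Tcf7l1 and raised when Wnt signalling relieves that repression. Tfcp2l1 belongs to the CP2 and grainyhead family of DNA-binding proteins and is induced by LIF through STAT3. Both help mESCs to renew in the naive state.

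The starts of the 2 genes are shown because the members share their low values in MEFs, and these windows are where RefSeq places the bases just before each annotated start. Esrrb spans chr12:86361117-86521628 and Tfcp2l1 spans chr1:118627923-118685168, both on the plus strand of GRCm38.p6. The window before the first Esrrb start is chr12:86360867-86361116, and the one before Tfcp2l1 is chr1:118627695-118627922. Capitals mark a match to the STAT palindrome TTCNNNGAA in Esrrb and to the TATA box TATAAA in Tfcp2l1.
Esrrb: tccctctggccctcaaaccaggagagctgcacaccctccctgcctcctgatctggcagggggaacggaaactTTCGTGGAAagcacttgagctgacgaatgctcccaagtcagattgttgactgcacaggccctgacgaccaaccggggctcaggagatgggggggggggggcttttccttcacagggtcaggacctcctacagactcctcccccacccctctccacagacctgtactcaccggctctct
Tfcp2l1: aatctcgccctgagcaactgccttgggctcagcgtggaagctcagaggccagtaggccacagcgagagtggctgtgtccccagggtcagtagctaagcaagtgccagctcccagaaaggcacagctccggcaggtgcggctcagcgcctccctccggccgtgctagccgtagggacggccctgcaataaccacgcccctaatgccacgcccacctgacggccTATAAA

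The motifs were searched on both strands, and no match overlapped another. The STAT palindrome was found in 7.02% of the 32851 RefSeq windows of 250 bases, and the TATA box in 11.6% of windows of 228 bases. The estrogen-related receptor half-site AAGGTCA and the TCF core CTTTGA had 0 matches in these windows, as in a further window before an internal Esrrb start at chr12:86421394-86421643. A match or its absence describes the letters of the window only.

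Values below are the deposited log2 values, in which every probe set had been set to a median of 0 over the 18 arrays. A value therefore says how an array stands against the other arrays for that gene, and neither detection nor the level of one gene against another can be read from it. Between arrays, differences of these values are log2 fold changes.

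Esrrb was low in MEFs and nearly level in all pluripotent groups. In the 3 MEF arrays Esrrb stood at -6.58, -6.53 and -6.45. The mESC clones had Esrrb values of -0.14, 0.14 and -0.11. All 3 MEF arrays were far below every other array, and the mESC clones straddled the zero line.

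In the OE + EpEX clones 1 to 4, Esrrb was at -0.15, -0.15, -0.22 and 0.063. The KE + EpEX clones had Esrrb values of 0.26, 0.061, -0.014 and 0.14. OSKM clones were at 0.014, 0.032, 0.058 and 0.086 for Esrrb. Clone 4 of OE + EpEX and clone 1 of KE + EpEX were the highest of their groups, clone 3 was the lowest in both, and every iPSC group overlapped the mESC range. Over the 15 mESC and iPSC arrays, Esrrb covered a range of 0.48 on the log2 scale, which is 1.39-fold.

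Tfcp2l1 was also low in MEFs, but it was not level among the pluripotent groups. In the MEF arrays Tfcp2l1 stood at -6.07, -4.35 and -3.92. The mESC clones were at -0.33, -0.42 and -0.40 for Tfcp2l1. MEF array 1 was the lowest of all arrays and stood apart from the other MEF arrays, whereas the 3 mESC clones lay close together.

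OE + EpEX clones 1 to 4 had Tfcp2l1 values of 0.25, 0.46, -0.23 and 0.87. In the KE + EpEX clones Tfcp2l1 was at 0.80, 0.62, -0.028 and 0.56. The OSKM clones had 0.13, 0.013, -0.013 and 0.067 for Tfcp2l1. All 12 iPSC clones were thus above all 3 mESC clones for Tfcp2l1, a pattern that 5.31% of all probe sets shared. Clone 3 was again the lowest of the OE + EpEX and KE + EpEX groups, and the range over the 15 arrays was 2.44-fold.

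By group mean, Tfcp2l1 was ordered from MEFs through mESCs, OSKM and OE + EpEX to KE + EpEX. The arrays of MEFs, mESCs and OSKM did not overlap, while those of OSKM, OE + EpEX and KE + EpEX did. For Esrrb the order was MEFs, OE + EpEX, mESCs, OSKM and KE + EpEX, and all neighbours above MEFs overlapped.

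The symbols limit any check of the labels by markers, since each named marker was bound by the 10-fold limit to differ between MEFs and the other arrays. With that limit, the mean log2 value of 8 pluripotent markers was -7.70 to -7.55 in MEFs, 1.02 to 1.04 in mESCs and -0.12 to 0.39 in iPSC clones. No listed marker of trophoblast, endoderm or neural ectoderm had a symbol.

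**Figure D1:**
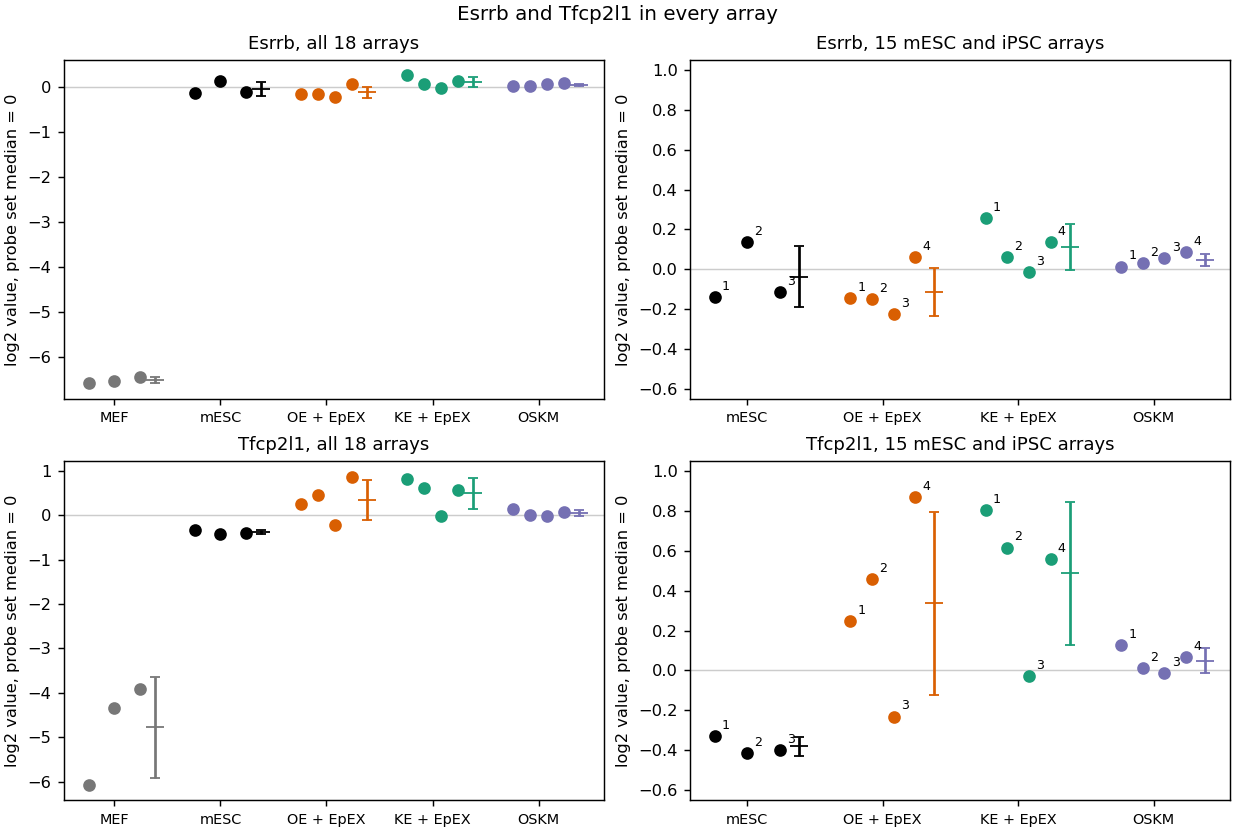
Log2 values of Esrrb (top) and Tfcp2l1 (bottom) in all 18 arrays (left) and without the MEF arrays (right); points are arrays, numbers are clones or replicates, and bars are the group mean ± SD (n = 3 for MEF and mESC, n = 4 otherwise). Esrrb stays between -0.22 and 0.26 in the 15 mESC and iPSC arrays, while every iPSC clone lies above the mESC clones for Tfcp2l1.

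The rise from MEFs is a description without a test, because symbols were given only to probe sets at least 10-fold from the MEF mean in all 15 other arrays. Esrrb was 78.6-fold to 110-fold above the MEF mean in those arrays. By its lowest fold it stood at place 37 of the 477 raised probe sets. Tfcp2l1 was 20.6-fold to 50.1-fold above the MEF mean and stood at place 176. The median lowest fold in the list was 16.7. The probe set just inside the limit had a lowest fold of 10.03, and the one just outside it 9.97.

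The group means put Esrrb 89.4-fold above MEFs in mESCs, 99.0-fold in KE + EpEX, 84.8-fold in OE + EpEX and 94.8-fold in OSKM iPSCs. For Tfcp2l1 the same folds over MEFs were 21.1, 38.5, 34.7 and 28.4. The MEF reference mattered more for Tfcp2l1 than for Esrrb. Taken against MEF array 1 alone, the lowest Tfcp2l1 fold of the 15 arrays was 50.3, and against MEF array 3 alone it was 11.3. For Esrrb these values were 81.9 and 74.7. MEF array 1 also stood apart over all probe sets, with a root mean square log2 difference of 0.864 and 0.883 from the other two MEF arrays, which differed by 0.236 from each other. After quantile normalization of the deposited values, the mESC differences from MEFs were 2.14 for Esrrb and 1.08 for Tfcp2l1 on the log2 scale, against 6.48 and 4.40 as deposited. Quantile normalization gives every array the same spread, although the array SDs ran from 0.193 to 1.39 as deposited. It can therefore change differences between arrays by itself, and these values do not bound the fold over MEFs.

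The comparisons among pluripotent groups ask whether each way of making iPSCs brings these genes to the mESC level. They were tested with limma over all probe sets, and comparisons with mESCs share the same 3 mESC arrays. In bulk RNA, fewer cells that express a gene and less RNA per cell cannot be told apart.

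Esrrb passed the test in none of the 3 comparisons with mESCs. An adjusted p under 0.05 was reached by 8.46% of probe sets in the OE + EpEX comparison and by 10.6% in each of the KE + EpEX and OSKM comparisons. The Esrrb mean was -0.11 ± 0.12 (SD, n = 4) in OE + EpEX and -0.038 ± 0.15 (SD, n = 3) in mESCs. Their difference was -0.076 (SE 0.093, adjusted p = 0.718), with a 95% interval from -0.27 to 0.12. KE + EpEX iPSCs had an Esrrb mean of 0.11 ± 0.12 (SD, n = 4) and a difference of 0.15 from mESCs (SE 0.093, adjusted p = 0.411, interval -0.049 to 0.35). OSKM iPSCs had 0.047 ± 0.031 (SD, n = 4) and a difference of 0.085 (SE 0.093, adjusted p = 0.701, interval -0.11 to 0.28). In this fit the intervals of all 3 differences end between 0.828-fold and 1.27-fold, so a larger Esrrb difference lay outside them. With trended and robust variance estimates they end between 0.751-fold and 1.40-fold, and after quantile normalization between 0.753-fold and 1.41-fold. Without mESC clone 2 the OE + EpEX difference changed sign to 0.012.

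Tfcp2l1 was higher than in mESCs in every iPSC clone, but it did not pass the test in the fit over 18 arrays. The Tfcp2l1 mean was -0.38 ± 0.047 (SD, n = 3) in mESCs and 0.49 ± 0.36 (SD, n = 4) in KE + EpEX iPSCs. That difference of 0.87, or 1.83-fold, had an SE of 0.37 and an adjusted p of 0.168 (unadjusted p = 0.0311 in limma), with an interval from 1.06-fold to 3.13-fold. OE + EpEX iPSCs had 0.34 ± 0.46 (SD, n = 4) and a difference of 0.72, or 1.64-fold (SE 0.37, adjusted p = 0.282, interval 0.958-fold to 2.82-fold). OSKM iPSCs had 0.048 ± 0.062 (SD, n = 4) and a difference of 0.43, or 1.35-fold (SE 0.37, adjusted p = 0.590, interval 0.785-fold to 2.31-fold). No Tfcp2l1 clone of any iPSC group overlapped the mESC clones. All clones of a group above all mESC clones occurred in 9.22% of probe sets for KE + EpEX, 10.1% for OE + EpEX and 14% for OSKM clones.

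The Tfcp2l1 tests turned on the MEF arrays, which share the estimate of spread although they are in none of these comparisons. The SD of Tfcp2l1 was 1.14 over the MEF arrays and 0.46 or less in each other group. In a fit of the 15 mESC and iPSC arrays the SE fell to 0.21 with the same differences. There Tfcp2l1 passed in KE + EpEX (adjusted p = 0.00921) and OE + EpEX (adjusted p = 0.0316) against mESCs, and had an adjusted p of 0.197 in OSKM. Of all probe sets, 16.7%, 14.2% and 17% passed in that fit. Leaving out MEF array 1 alone gave adjusted p values of 0.00799, 0.0290 and 0.194 for the 3 groups. With only the arrays of the 2 groups compared, they were 0.0179 for KE + EpEX, 0.0660 for OE + EpEX and 0.00255 for OSKM. For Esrrb the fit of 15 arrays gave an SE of 0.095 and adjusted p values from 0.362 to 0.668 in these comparisons.

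**Figure D2:**
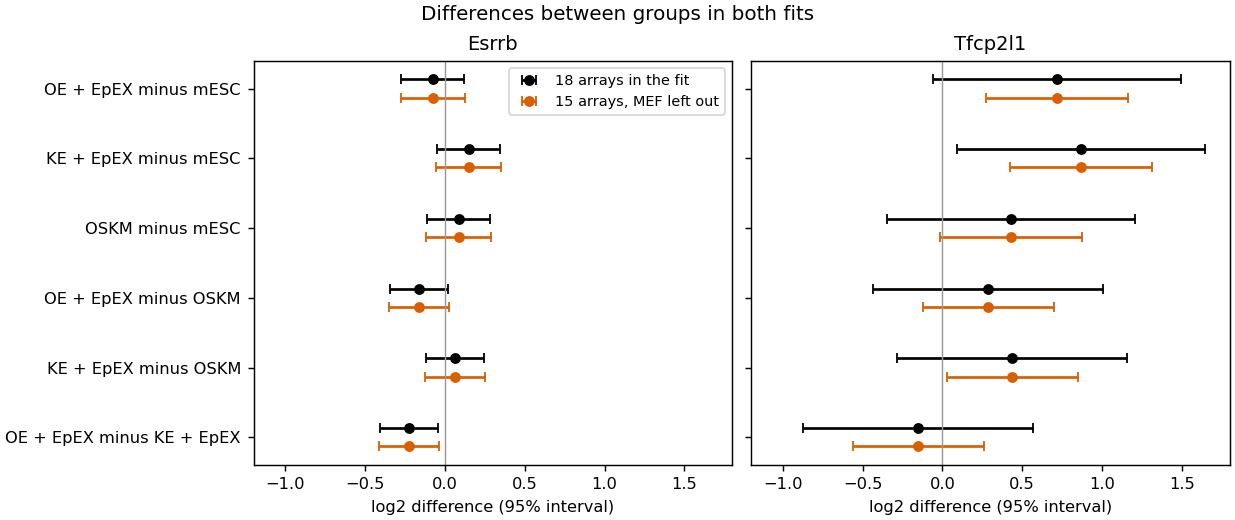
Log2 differences between groups (x axis) for Esrrb and Tfcp2l1, with 95% intervals from limma, in the fit of 18 arrays (black) and of the 15 arrays without MEFs (orange). The differences are the same in both, and the Tfcp2l1 intervals narrow without the MEF arrays. For Tfcp2l1, the interval of KE + EpEX minus mESC lies above 0 in both fits. Those of OE + EpEX minus mESC and KE + EpEX minus OSKM do so only without the MEF arrays.

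Neither gene passed the test between the iPSC groups, where few probe sets did. An adjusted p under 0.05 was reached by 0.269% of probe sets in OE + EpEX against OSKM. In KE + EpEX against OSKM and OE + EpEX against KE + EpEX, 0 probe sets (0%) passed in limma, while 3479 and 2446 had an unadjusted p under 0.05 and the methods' test on each pair of groups passed 2 and 0 after adjustment. For Tfcp2l1 the differences were 0.29 for OE + EpEX minus OSKM (SE 0.34, adjusted p = 0.821), 0.44 for KE + EpEX minus OSKM (SE 0.34, adjusted p = 0.862) and -0.15 for OE + EpEX minus KE + EpEX (SE 0.34, adjusted p = 1.00). Their intervals reach from 0.546-fold to 2.23-fold. The last difference became 0.038 without OE + EpEX clone 3.

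Esrrb was lower in OE + EpEX than in KE + EpEX clones by 0.22, with an unadjusted p of 0.0191 and an adjusted p of 0.896 in limma. In all, 3 of the 4 OE + EpEX clones lay below all KE + EpEX clones, and clone 4 did not. The same 3 clones lay below all OSKM clones, with a mean difference of -0.16 (SE 0.086, adjusted p = 0.500). KE + EpEX minus OSKM was 0.063 (SE 0.086, adjusted p = 0.963) for Esrrb.

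The clones of a group were closer to each other for Esrrb than for Tfcp2l1 in all iPSC groups. The SD of Tfcp2l1 was 0.46 in OE + EpEX and 0.36 in KE + EpEX, and 95.5% and 88.0% of probe sets had a smaller SD in these groups. In OSKM clones the SD of Tfcp2l1 was 0.062 and that of Esrrb 0.031, with 16.7% and 3.29% of probe sets below them. For Esrrb the SD was 0.12 in both OE + EpEX and KE + EpEX, where 37.5% and 27.4% of probe sets had a smaller one. The mESC clones reversed this order, with 0.15 for Esrrb and 0.047 for Tfcp2l1. The difference in spread was not tested.

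The clones that were high in one gene tended to be high in the other within the OE + EpEX and KE + EpEX groups. Over the 12 iPSC clones Pearson's r of Esrrb with Tfcp2l1 was 0.528 (permutation p = 0.0781) and Spearman's rho 0.580 (permutation p = 0.0510). Without the 2 clones farthest from the Esrrb median, KE + EpEX clone 1 and OE + EpEX clone 3, r was 0.113, so the relation rests on those clones. For deviations from the group means r was 0.857 (permutation p = 0.00103) and rho 0.531 (permutation p = 0.0789). Adjusted over 3 relations, the 4 p values were 0.117, 0.146, 0.00309 and 0.118 in this order. The clones were shuffled over all 12 without regard to group, although the groups differ in spread. The p values of the deviations may therefore be too small. Within groups r was 0.914 over 4 OE + EpEX clones, 0.850 over 4 KE + EpEX clones and -0.333 over 4 OSKM clones, which gives these values no test of their own.

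Fibroblast markers moved with Tfcp2l1 in some of the same clones. Of 12 fibroblast markers listed, 8 had a symbol (Col1a1, Col3a1, Postn, Twist1, Pdgfra, Pdgfrb, Snai2 and Zeb2). Their mean log2 value was 4.49 to 6.32 in MEFs, -0.53 to -0.15 in mESCs, -0.72 to 1.15 in KE + EpEX, -0.25 to 0.87 in OE + EpEX and -0.42 to -0.24 in OSKM clones. None of the 8 passed the test against mESCs in any iPSC group in the fit of 18 arrays. In the fit without MEF arrays, Snai2 was higher in OE + EpEX (1 of 8), Pdgfra was lower in KE + EpEX (1 of 8), and Postn was higher and Pdgfra lower in OSKM iPSCs. The highest iPSC values were those of KE + EpEX clone 1 and OE + EpEX clone 4, which also had the highest Tfcp2l1 and Esrrb values of their groups. As these values are set to each probe set's median, a marker near 0 is not a marker without signal, and which markers were at background is unknown.

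Over the 12 clones r of the fibroblast marker mean with Tfcp2l1 was 0.642 (permutation p = 0.0237, adjusted p = 0.0710) and rho was 0.503 (permutation p = 0.0975, adjusted p = 0.146). Without those 2 clones r was 0.133. With Esrrb, r was 0.284 (permutation p = 0.373, adjusted p = 0.373), rho was 0.0559 (permutation p = 0.870), and r was -0.414 without the 2 clones. For deviations from the group means, r of the marker mean was 0.611 with Tfcp2l1 (permutation p = 0.0346, adjusted p = 0.0346) and 0.688 with Esrrb (permutation p = 0.0144, adjusted p = 0.0216). The rho of these deviations was 0.587 with Tfcp2l1 (permutation p = 0.0493, adjusted p = 0.118) and 0.420 with Esrrb (permutation p = 0.175, adjusted p = 0.175). Here too the shuffling ignored the groups, so the p values of the deviations may be too small. Within groups r of the marker mean with Tfcp2l1 was 0.735 in KE + EpEX, 0.565 in OE + EpEX and 0.710 in OSKM, each over 4 clones. With Esrrb it was 0.682, 0.849 and -0.228 in the same order. Without both clones in the fit, the Tfcp2l1 difference from mESCs was 0.54 in OE + EpEX and 0.76 in KE + EpEX (adjusted p = 0.552 and 0.320), and the other clones of these groups lay above all mESC clones. The 10-fold limit of the list required a low Tfcp2l1 level in MEFs, and the MEF mean was at least 20.6-fold below each of the 15 arrays. Why Tfcp2l1 and the marker mean moved together was not tested.

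**Figure D3:**
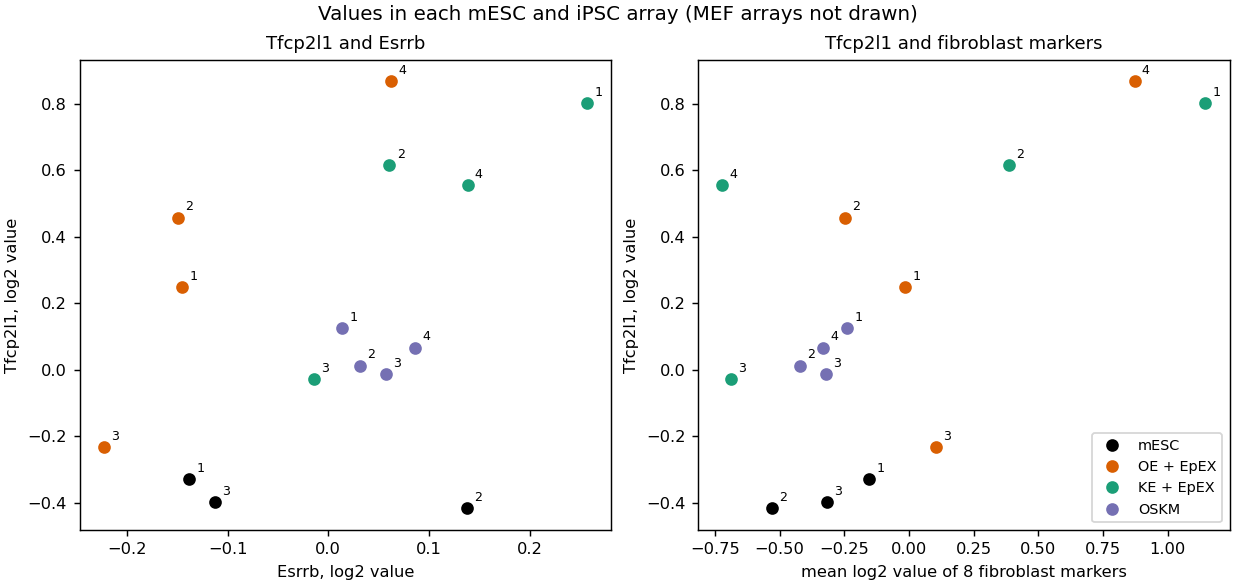
Tfcp2l1 log2 value (y axis) against the Esrrb log2 value (left) and the mean log2 value of 8 fibroblast markers (right) in the 15 mESC and iPSC arrays; each point is 1 array, numbered by clone. KE + EpEX clone 1 and OE + EpEX clone 4 lie at the top right of the marker plot, and the 3 mESC clones lie below all iPSC clones.

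Within an array, Esrrb minus Tfcp2l1 shows how the balance of the 2 genes shifted between groups, with 0 as an arbitrary point. This balance was 0.34 ± 0.19 (SD, n = 3) in mESCs, -0.00099 ± 0.078 (SD, n = 4) in OSKM, -0.38 ± 0.27 (SD, n = 4) in KE + EpEX and -0.45 ± 0.35 (SD, n = 4) in OE + EpEX iPSCs. The lowest mESC value was 0.19 and the highest iPSC value 0.071, so no iPSC clone overlapped the mESC clones. Tfcp2l1 alone already separated these clones, a pattern that 5.31% of all probe sets shared. How many gene pairs separate the clones likewise was not counted. The balance is given without a p because both genes were chosen together.

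Of the 16 other genes of the pluripotency network that were listed, 14 had a symbol. Against mESCs, 0 rose and 3 fell in OE + EpEX, 1 rose and 3 fell in KE + EpEX, and 0 rose and 3 fell in OSKM iPSCs, at an adjusted p under 0.05 in limma. Of all 45037 probe sets, 1769 rose and 2039 fell in OE + EpEX, 1895 and 2876 in KE + EpEX, and 1977 and 2805 in OSKM. The 3 network genes that fell were the same in each group in this fit. They were Pou5f1, which encodes Oct4, Zfp42, which encodes the marker Rex1, and Nr5a2, a nuclear receptor that can activate Pou5f1. Dppa3, a factor that protects methylated DNA in the early embryo, rose in KE + EpEX by 1.42 (SE 0.43, adjusted p = 0.0437). The median difference over the 14 genes was -0.24 in KE + EpEX, -0.35 in OE + EpEX and -0.23 in OSKM, beside -0.022, -0.054 and -0.017 over all probe sets. In the fit without MEF arrays, 0 rose and 5 fell in OE + EpEX, 2 rose and 4 fell in KE + EpEX, and 2 rose and 3 fell in OSKM iPSCs. Of all probe sets, 14.2%, 16.7% and 17% passed there in either direction, in the same order. Klf5 and Tdgf1 joined the 3 that fell in OE + EpEX, Klf5 joined them in KE + EpEX, Tbx3 joined Dppa3 above mESCs in KE + EpEX, and Tbx3 and Sall4 rose in OSKM. Neither Esrrb nor Tfcp2l1 fell by the test in either fit. The 10-fold limit of the list bounds how far any listed gene could fall in an iPSC array.

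The Pou5f1 difference from mESCs was -5.22 in OE + EpEX (SE 0.42, adjusted p = 7.73e-07), -5.75 in KE + EpEX (adjusted p = 2.32e-07) and -5.52 in OSKM (adjusted p = 3.46e-07). Those of Nr5a2 were -1.58, -1.45 and -2.02 and those of Zfp42 were -1.78, -1.68 and -1.96 in the same order. By Q-PCR the paper reports Oct4 RNA in iPSCs comparable to that in mESCs. For OE + EpEX and KE + EpEX iPSCs, its Q-PCR genes reported at an equivalent level include Rex, the product of Zfp42. The paper also reports Oct4 protein at similar levels in iPSCs and mESCs, and a similar methylation of the Oct4 promoter. The Pou5f1 values here rest on a single probe set, and which transcripts of the altered Pou5f1 allele it reads is unknown. Nanog, the homeobox factor that works beside Esrrb, had differences of 0.28, 0.37 and -0.016 with adjusted p of 0.257, 0.105 and 0.976. Klf5, a factor of mESC self-renewal, had differences of -0.53, -0.62 and -0.37, and Tbx3, a T-box factor of the same network, of 0.23, 0.48 and 0.57. Neither passed in the fit of 18 arrays. Without MEF arrays, Klf5 passed in OE + EpEX (adjusted p = 0.0165) and KE + EpEX (adjusted p = 0.00524) and had an adjusted p of 0.0808 in OSKM, while Tbx3 passed in KE + EpEX (adjusted p = 0.0221) and OSKM (adjusted p = 0.00748) and had 0.303 in OE + EpEX. The SD over the MEF arrays was 1.35 for Klf5 and 1.63 for Tbx3. OE + EpEX clone 3, the iPSC clone with the lowest values of both Esrrb and Tfcp2l1, had a Pou5f1 value of 2.18, while the other iPSC clones lay between -0.32 and 0.24 and the mESC clones between 5.62 and 5.66.

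**Figure D4:**
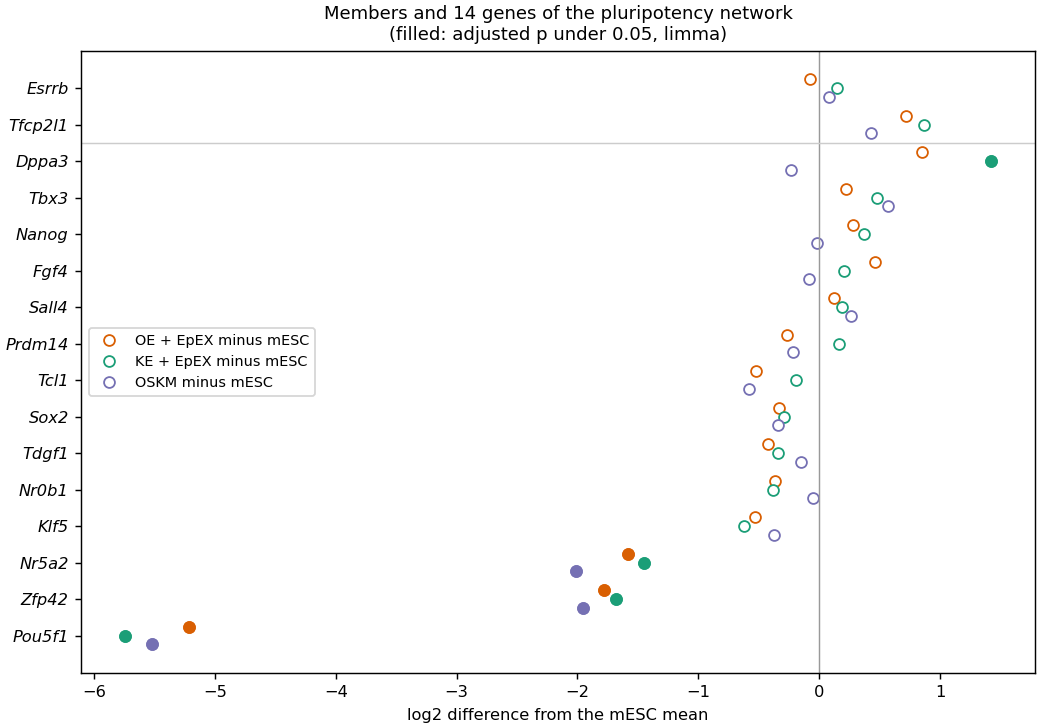
Log2 differences of the 3 iPSC groups from the mESC mean (x axis) for Esrrb, Tfcp2l1 and 14 further pluripotency network genes; filled points passed an adjusted p under 0.05 in limma over 18 arrays. Pou5f1, Zfp42 and Nr5a2 lie to the left in all 3 groups, Esrrb lies near 0, and Tfcp2l1 lies between 0.43 and 0.87.

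The genes upstream of the members could not be followed. None of 7 genes of the LIF and STAT3 pathway and none of 6 genes of the Wnt and Tcf pathway had a symbol in the files used here. Of 7 genes of the primed and formative state, 3 had one. Dnmt3b, a de novo DNA methyltransferase, rose in OE + EpEX by 1.03 (SE 0.31, adjusted p = 0.0476) and in OSKM by 1.49 (SE 0.31, adjusted p = 0.00431), and differed by 0.47 in KE + EpEX (adjusted p = 0.439). Otx2 and Zic2, transcription factors of the formative state, passed in no comparison with mESCs in either fit. Of 8 relatives and partners of the members, Grhl3 alone had a symbol. This grainyhead factor of epithelia passed in no comparison with mESCs in either fit.

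The genes most like each member over the 15 mESC and iPSC arrays were sought among 686 genes with a single symbol, by Pearson's r as a description. For Tfcp2l1 they were Fbxo15 (r = 0.936), Cidea (r = 0.901), Aqp3 (r = 0.900), Cdk14 (r = 0.892) and Tmem51 (r = 0.891). Fbxo15 is an F-box gene used as a marker of mESCs, Cidea is a lipid droplet protein and Aqp3 is a water and glycerol channel. The group means of Fbxo15 were -0.14 ± 0.041 (SD, n = 3) in mESCs, 0.15 ± 0.12 in KE + EpEX, 0.14 ± 0.12 in OE + EpEX and 0.0012 ± 0.0095 in OSKM (SD, n = 4 each), the same order of groups as for Tfcp2l1 in a narrower range. Cdk14, a cyclin-dependent kinase, was the one of the 5 that stood higher in MEFs, with a mean of 4.88 ± 0.20 (SD, n = 3).

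For Esrrb the 5 were Serpina3m (r = 0.869), Abcb1a (r = 0.811), Aard (r = 0.765), Gdf3 (r = 0.734) and Soga2 (r = 0.718). Serpina3m is a protease inhibitor of the serpin family, Abcb1a is a drug efflux pump and Gdf3 is a TGF-beta family ligand of pluripotent cells. No gene was in both sets of 5. Tfcp2l1 came at place 65 for Esrrb and Esrrb at place 261 for Tfcp2l1, with r = 0.447 between them. All these values share the same arrays and normalization, and Esrrb varied by only 1.39-fold over them.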

How the data were processed

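Total RNA of 18 samples was hybridised to Affymetrix mouse expression arrays (in vitro transcription labelling and biotin per the labels). The authors analysed the arrays with GeneSpring GX, and the submitters' processing notes name MAS5 and RMA with no role given. The values were deposited as normalized log2 values with each probe set at a median of 0 over the arrays (largest distance 5.0e-07). Further deposited columns were the authors' MEF mean and lists of 477 raised and 471 lowered probe sets with fold ratios, from which only the gene symbols were taken. Symbols were thus known for 931 probe sets (2.07%). Raw scans were not analysed here. The array medians lay between -0.031 and 0.070 and the number of arrays limits the precision, as signal over background is unknown.

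Control probe sets (64) were left out, and no 2 arrays held identical values. Groups came from the sample labels. limma 3.58.1 in R 4.3.3 was fitted to all 18 arrays with 1 mean per group, and p values were adjusted over 45037 probe sets by Benjamini and Hochberg within each of 6 comparisons. Counts of called probe sets also required a log2 difference of 1 where stated. The 4 comparisons with MEFs, and the difference of the members, were described without a test. Correlations used 100000 resamples (two-sided) that shuffled clones across groups, with Python 3.11.15, numpy 2.4.6, pandas 2.3.3 and scipy 1.17.1. The limma fit was tested on simulated data for KE + EpEX against mESCs and OE + EpEX against OSKM. List genes were represented by the probe set with the largest SD over the arrays, and genes named for likeness were the 5 with the highest r. The members, gene lists, motifs and tests were chosen with earlier results of these data known. The relations with fibroblast markers, and the alternative without the 2 clones highest in them, were added after seeing the data. Promoter windows came from RefSeq tables of GRCm38.p6, which held 27025 genes, both members included. The replicate numbers of the labels did not pair the samples. Alternatives were quantile normalization, median centring, other sets of arrays in the fit, trended and robust variance estimates, the 22519 probe sets with the larger SD, the methods' test, a replicate block and leaving out each array.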

Additional observations from a re-analysis of the deposited data

Results flagged for a closer look

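The mean log2 value of the 8 pluripotent markers was 0.387 in OE + EpEX clone 3, against -0.081 to -0.015 in the other clones of that group, so that this clone stood far from the others (ratio of gap to range 0.859). Pou5f1 weighed most in this mean, with 2.18 in clone 3 against -0.32 to 0.025 in the other OE + EpEX clones, while Nr0b1 was lowest in clone 3 at -0.50. It was the 1 such case among 15 combinations of a measure with an iPSC group of 4 clones, of which chance gives about 0.75. The same clone had the lowest Esrrb and Tfcp2l1 values of all iPSC clones, and no group of either gene held a clone that far from the others.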

How the results depend on the processing

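Of the 12 tests of Esrrb and Tfcp2l1 among mESC and iPSC groups, those of Tfcp2l1 against mESCs depended on which arrays set the spread. In the fit without MEF arrays the Tfcp2l1 differences of 0.72 in OE + EpEX and 0.87 in KE + EpEX passed, as they did without MEF replicate 1. With only the 2 groups in the fit, 0.87 in KE + EpEX and 0.43 in OSKM passed. Quantile normalization, which gives every array the same spread, gave 1.30 (adjusted p = 0.0227) in KE + EpEX. The methods' test passed the OSKM difference of 0.43 after adjustment (adjusted p = 0.00407). Without adjustment it passed 0.72, 0.87 and 0.43 in OE + EpEX, KE + EpEX and OSKM for Tfcp2l1, and for Esrrb -0.16 in OE + EpEX against OSKM and -0.22 against KE + EpEX. Leaving out single arrays, or the 2 clones with the highest fibroblast markers together, the Tfcp2l1 difference from mESCs ran from 0.54 to 0.91 in OE + EpEX and from 0.76 to 1.04 in KE + EpEX. The Esrrb difference of OE + EpEX from mESCs ran from -0.13 to 0.012, positive without mESC clone 2, and the Tfcp2l1 difference of OE + EpEX from KE + EpEX from -0.33 to 0.038, positive without OE + EpEX clone 3. The balance Esrrb minus Tfcp2l1 of OE + EpEX against KE + EpEX ran from -0.23 to 0.057 and was 0.045 when OE + EpEX clone 4 was left out and 0.057 when KE + EpEX clone 3 was. After quantile normalization this balance was -1.16 and -1.08 against mESCs and -0.72 and -0.65 against OSKM, for OE + EpEX and KE + EpEX in turn. The correlation of Esrrb with Tfcp2l1 ran from 0.37 to 0.64 when single clones were left out, with a permutation p of 0.0311 without OE + EpEX clone 2. The replicate numbers share only a number, as deviations of same-numbered arrays correlated between -0.362 and 0.254 (median -0.0025 over 33 pairs). With the replicate block the Tfcp2l1 differences from mESCs were 0.65, 0.80 and 0.36, and no call on either gene changed. The probe set with the largest SD in place of a mean was not run, as each gene had 1.

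Probe sets that passed both limits (adjusted p under 0.05, log2 difference of 1 or more) numbered 1327, 1552 and 1476 for OE + EpEX, KE + EpEX and OSKM against mESCs, 20 for OE + EpEX and 0 for KE + EpEX against OSKM, and 0 for OE + EpEX against KE + EpEX (limma, with 3479 and 2446 at an unadjusted p under 0.05 in the last pair). Without the fold limit the first 4 were 3808, 4771, 4782 and 121, and at 1.5-fold 2710, 3338, 3364 and 88. Quantile normalization, which gives every array the same spread, gave 3030 in OSKM against mESCs, and 1523 and 831 in OE + EpEX and KE + EpEX against OSKM. The last pair had 105 and 13 with only the 2 groups in the fit. In the fit without MEF arrays they had 44 and 1. The methods' test was counted without a fold limit, so its counts do not compare with those that passed both limits. It called 10165, 9288, 14027, 8240, 4979 and 2719 without adjustment. After adjustment it called 8570 in OSKM against mESCs, 385 in OE + EpEX and 2 in KE + EpEX against OSKM. The replicate block gave 0 in OE + EpEX against OSKM. With arrays left out the counts ran from 0 to 69 in OE + EpEX against OSKM, from 0 to 114 in KE + EpEX against OSKM and from 0 to 11 in OE + EpEX against KE + EpEX, with the highest counts without MEF replicate 1, KE + EpEX clone 3 and OE + EpEX clone 3. Signal over background is unknown in these values.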
